A study of Mus musculus with 8 samples.

Results

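The apolipoprotein L (Apol) genes of the mouse were followed in tumor endothelial cells from melanomas treated with an agonistic CD40 mAb. The set held 7 genes given by name, Apol6, Apol7c, Apol8, Apol9a, Apol9b, Apol10a and Apol10b, out of 20057 genes measured. It was chosen by family name, with the normalized reads of the treatment comparison and the differences between its groups already known, so that the values of these genes under treatment are given as a description, without p-values. Where members are counted by the rule used for all genes, the share of all genes that met it stands beside the count.

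RNA-sequencing was performed on 8 libraries, each from endothelial cells of a tumor of a different mouse. All mice were C57BL/6 males, 8 weeks old, that carried a subcutaneous tumor grown from 250000 B16.F10 cells, a melanoma line of the same strain. Tumors of 4 mice (libraries 5N, 6L, 6R and 10N, named after the mouse) received the agonistic CD40 mAb FGK4.5, and tumors of the other 4 (5L, 7N, 8N and 9L) received the rat IgG2a isotype control 2A3. Each antibody was given peritumorally as 2 injections of 30 µg, on days 13 and 16. The study's methods place sacrifice 1 day after the last injection, and its supplement also names a later day for the sorting experiments. The labels do not give the day of harvest for each library. About 100000 CD45- CD31+ cells were sorted per tumor, and the comparison addresses how the treatment alters gene expression in the tumor vasculature.

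Apolipoprotein L proteins have little in common with the plasma apolipoproteins beyond their name. They are mostly intracellular, membrane-associated proteins, and human APOL1 is secreted into blood, where it kills trypanosomes. Many family members are induced by interferons in endothelial and other cells, through transcription factors that bind response elements near the start of their target genes. In the mouse the family has expanded into a cluster on chromosome 15 with several near-identical copies.

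All 7 genes were annotated on chromosome 15 of GRCm38. Apol6 (ENSMUSG00000033576.12) spanned chr15:77044729-77057106 on the plus strand and stood apart from the others. The remaining 6 lay between the splicing regulator Rbfox2 and Myh9, in the order Apol9a (chr15:77403789-77411135, minus strand), Apol10a (chr15:77477047-77491069, plus), Apol7c (chr15:77524852-77533316, minus), Apol10b (chr15:77583819-77596125, minus), Apol9b (chr15:77729039-77736382, plus) and Apol8 (chr15:77747798-77757003, minus). Of the family as a whole, 13 genes were annotated on this chromosome.

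The promoters were read for the core of the interferon-stimulated response element, because several of these genes differed together between the groups. The search covered the RefSeq promoter windows of GRCm38.p6, from 250 bases before to 50 bases after an annotated start, for GAAA and GAAA separated by any 2 bases, on both strands. Of the 6 listed genes with an entry, 5 held the core (Apol7c, Apol9a, Apol9b, Apol10a and Apol10b), and Apol8 did not. Apol6 had no entry. The core was present in 3.44% of all 32851 promoter windows, and in 3.99% of the 27025 genes that have such a window. Each match read TTTC, 2 bases and TTTC on the strand of the gene. The 100 bases around it are given 5′ to 3′ on that strand, with the bases of the matches in capitals. They show that Apol9a and Apol9b had the same sequence there, and that Apol10a and Apol10b resembled each other more than the other 3.
Apol9a: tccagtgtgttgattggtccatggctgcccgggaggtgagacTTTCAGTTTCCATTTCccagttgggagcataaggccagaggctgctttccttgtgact
Apol9b: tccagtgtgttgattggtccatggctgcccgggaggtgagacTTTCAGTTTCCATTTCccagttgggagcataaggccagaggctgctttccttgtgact
Apol7c: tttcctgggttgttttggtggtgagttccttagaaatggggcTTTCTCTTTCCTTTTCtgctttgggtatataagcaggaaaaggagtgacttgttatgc
Apol10a: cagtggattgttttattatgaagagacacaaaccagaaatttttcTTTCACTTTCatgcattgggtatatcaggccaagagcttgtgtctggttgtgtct
Apol10b: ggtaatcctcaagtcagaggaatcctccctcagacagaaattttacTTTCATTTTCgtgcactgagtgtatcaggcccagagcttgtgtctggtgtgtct
These stretches were located at chr15:77411082-77411181 (minus strand) for Apol9a, chr15:77728993-77729092 (plus) for Apol9b, chr15:77533313-77533412 (minus) for Apol7c, chr15:77476951-77477050 (plus) for Apol10a and chr15:77596076-77596175 (minus) for Apol10b.

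Apol9a, Apol9b and Apol7c each held 2 overlapping copies of the core, and Apol10a and Apol10b held 1. The matches ended 39 bases before the annotated start in Apol7c, 43 in Apol9a, 21 in Apol9b and 41 in Apol10a. These starts are those of the RefSeq entries. By the gene bounds given above, from another annotation (GENCODE), the starts of Apol9a and Apol9b lie within their matches. Apol9a and Apol9b each had a second entry with another start, from which the same matches ended 89 and 70 bases upstream. In Apol10b the match ran from 4 bases before to 6 bases after the annotated start. The 100-base stretches of Apol9a and Apol9b were identical, and their promoter entries shared an unbroken run of 278 bases. Apol10a and Apol10b were identical at 71.0% of aligned bases, whereas the other pairs ranged from 54.5% to 61.5%. Among 6 other family genes with an entry, 3 held the core (Apol7e, Apol11a and Apol11b). A longer form, the core followed by C, occurred in 0.819% of all windows and, among the listed genes, in Apol9a and Apol9b. The gamma-activated site with a spacing of 3 bases, TTCNNNGAA, occurred in 8.30% of windows and in Apol10a alone of the listed genes, and the form with 4 bases between TTC and GAA in 6.95% and in Apol7c alone. A match describes the letters in the window and does not show that a factor binds there.

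Coding sequences were compared in the same way. The 21 pairs of listed genes were identical at 53.5% to 98.5% of aligned coding bases, with a median of 59.7%. Apol9a and Apol9b matched at 916 of 930 bases, 98.5%. Among the listed genes Apol10a and Apol10b followed at 73.6%, and Apol6 was the most distant, at 53.5% to 54.4%. Some were closer to family genes outside the set. Apol10b matched Apol11a at 82.5%, Apol10a matched Apol11a at 78.1%, and Apol7c matched Apol7b at 89.1%. Near-identical copies can exchange reads during alignment. Of all 50-base windows of the longest coding transcript, 57.5% in Apol9a and 51.4% in Apol9b also occurred in the other gene of the pair. For Apol7c the share found in any other gene was 26.2%, of which the largest part was with Gm8221 (16.3% of its windows), for Apol10a it was 16.9% and for Apol10b 6.11%. Apol6 and Apol8 shared none. The separate levels of Apol9a and Apol9b are therefore uncertain, and their sum is given beside them.

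**Figure D1:**
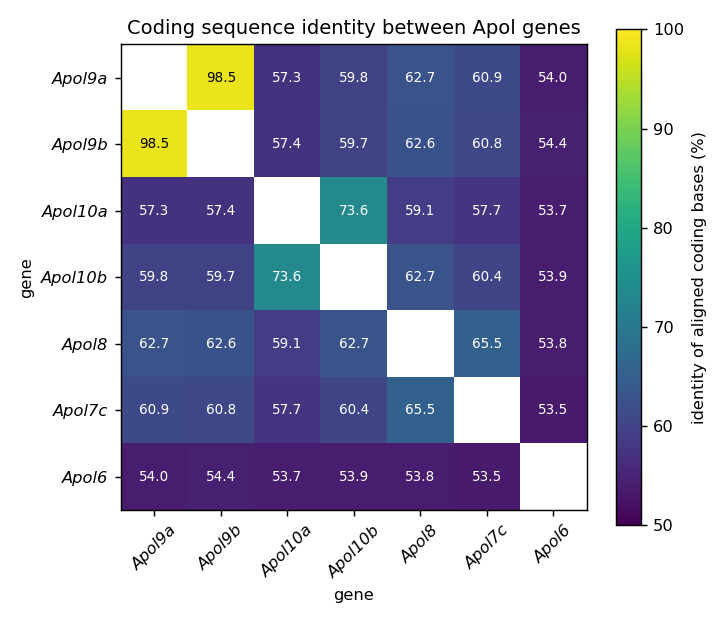
Identity of aligned coding bases (%) between each pair of the 7 listed genes, from the longest coding transcript of each. Apol9a and Apol9b stand out at 98.5%, Apol10a and Apol10b reach 73.6%, and Apol6 is at 53.5% to 54.4% to every other gene.

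Expression is given in normalized reads, the deposited values, in which reads are scaled to a common library size. Libraries held 12512772 to 64938728 reads on genes with agonistic CD40 mAb and 2971689 to 35583141 with isotype control, a 21.9-fold range. A read was therefore worth 0.118 normalized reads in 5N but 2.44 in 5L and 2.38 in 7N. Endothelial markers were high in all libraries, with summed levels of 39820 to 58174 with agonistic CD40 mAb and 34778 to 48929 with isotype, and all 10 markers were detected. Melanoma markers summed to 34553 to 58341 and 37047 to 89692, and fibroblast markers to 65460 to 148954 and 49533 to 120575, so that the libraries also held RNA typical of these cells. Leukocyte markers summed to at most 198 in any library, T and NK cell markers to at most 9.63 (Cd3d was at 0 in all) and B cell markers to at most 7.58. Macrophage markers summed to 278 to 463 and 181 to 407, and 1 of the 7, Mrc1, was called higher with agonistic CD40 mAb (by the limma rule of the transcriptome-wide fit), a shift whose part in the Apol levels was not tested. No other marker was called. None of the macrophage markers was at 0 in all libraries. Dendritic cell markers summed to 268 to 399 and 210 to 342 (Cd209a was at 0 in all). Most of this sum was Zbtb46 (166 to 270 over all libraries) and Clec9a (44.0 to 128). The other dendritic cell markers were at 14.3 or below in every library. The cells from which Apol transcripts came were not separated, and in bulk RNA fewer cells of a type and less RNA per cell cannot be told apart.

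Across the transcriptome, 12969 genes had a mean above 10 normalized reads in at least 1 group and were fitted with limma on log2(normalized reads + 1). A gene was called where the group means differed by 1.5 times or more and the unadjusted p was 0.05 or less. By this rule 166 genes were higher with agonistic CD40 mAb (1.28% of genes fitted) and 31 were lower (0.239%). Without isotype library 5L or 9L the number lower was 123 and 52, respectively. The groups failed to overlap upward in 1.09% and downward in 0.486%. After Benjamini-Hochberg adjustment 2 genes, Cd74 and Gbp10, had a limma adjusted p below 0.05. The spread between libraries of a group is the spread between tumors of different mice.

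Of the 7 listed genes 6 passed the limit on low values and Apol10a did not. Only 4 (Apol6, Apol9a, Apol9b and Apol10b) were above it in both groups, since Apol7c and Apol8 passed through the agonistic CD40 mAb group alone. Apol6, Apol7c, Apol9a and Apol10b met the call rule upward, 4 of 6 against 1.28% of all genes, and the groups did not overlap for the same 4, against 1.09%. None met it downward. Because these values were known when the set was chosen, nothing is read from those counts, nor from the median and the summed level that follow. The median log2 difference of the 6 genes was 1.41, beside 0.00 over all genes fitted. The summed level of the family was 434 ± 80.5 (SD, n = 4) with agonistic CD40 mAb and 206 ± 78.4 (n = 4) with isotype, a ratio of 2.11.

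**Figure D2:**
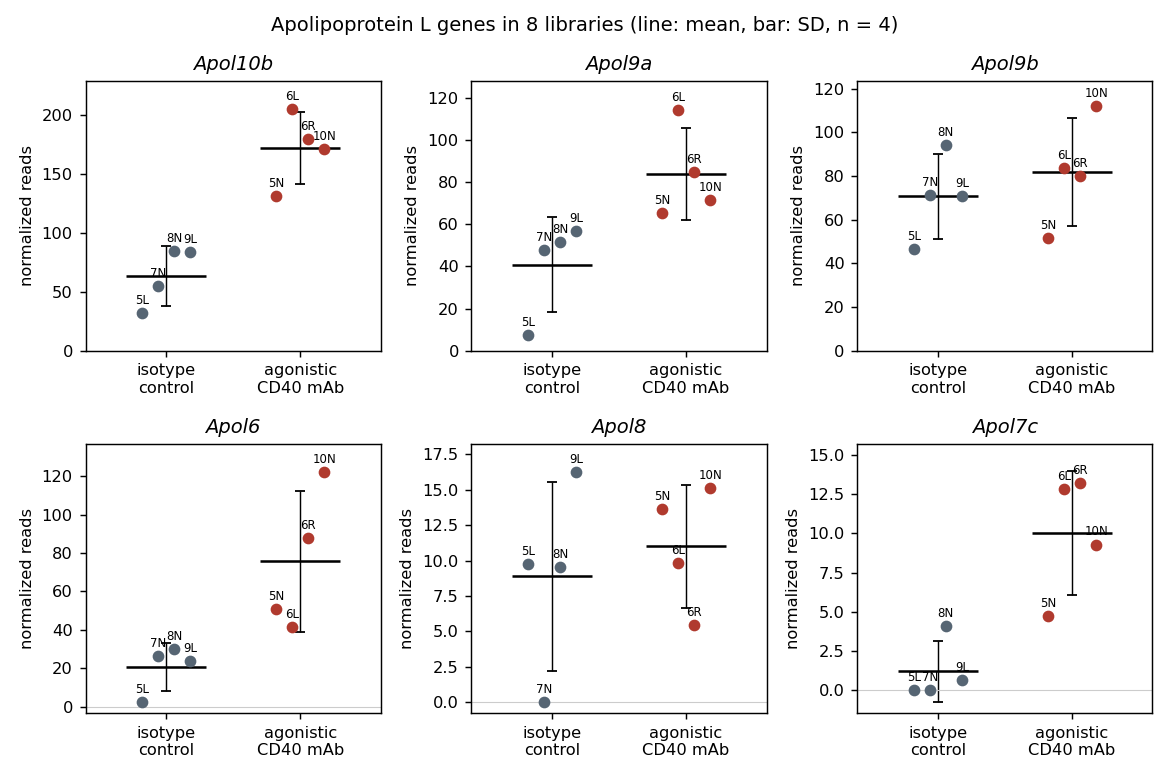
Normalized reads of 6 Apol genes in each of 8 libraries, with the isotype control group in grey and the agonistic CD40 mAb group in red (points: libraries labelled by mouse, line: group mean, bar: SD, n = 4). The groups are separate for Apol10b, Apol9a, Apol6 and Apol7c, and they overlap for Apol9b and Apol8. The vertical scale differs between panels, and Apol10a, at 0 in all libraries, is not drawn.

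Apol10b had the highest mean of the members with agonistic CD40 mAb, and with isotype its mean was below that of Apol9b. It was at 131, 205, 179 and 171 normalized reads in libraries 5N, 6L, 6R and 10N treated with agonistic CD40 mAb. In the isotype libraries 5L, 7N, 8N and 9L it was at 31.8, 54.7, 84.4 and 83.4. Every treated library was above every isotype library. The group means were 172 ± 30.5 and 63.6 ± 25.3 (SD, n = 4 each), a ratio of 2.70, and the log2 difference was 1.502 with a standard error of 0.30. The values rested on 2253 and 483 reads.

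Apol6 is the most divergent of the listed genes. Its human counterpart has been described as a BH3-only protein that can promote cell death. Apol6 was at 51.0, 41.5, 87.8 and 122 normalized reads in 5N, 6L, 6R and 10N and at 2.44, 26.2, 29.9 and 23.8 in 5L, 7N, 8N and 9L. In normalized reads, though not as a ratio, treated libraries differed among themselves by more than the group means did. None reached down to the isotype range. The means were 75.6 ± 36.8 and 20.6 ± 12.4 (SD, n = 4 each), a ratio of 3.67 and a log2 difference of 2.10 with a standard error of 0.66. The value in 5L was a single read, 1 of 144 in the isotype group, and without this library the log2 difference was 1.35. Exons of Apol6 overlap Mb, the myoglobin gene on the opposite strand, over 64 bases (1.42% of its exon bases). Mb itself had 11 reads with agonistic CD40 mAb and 0 with isotype. Its treated mean, 0.440 normalized reads, was below the worth of 3 reads in every isotype library (0.650 to 7.33).

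Apol9a and Apol9b encode interferon-inducible proteins known in the mouse for restricting replication of some viruses. Apol9a was at 65.4, 114, 84.8 and 71.4 normalized reads in 5N, 6L, 6R and 10N. It was at 7.33, 47.6, 51.7 and 57.0 in 5L, 7N, 8N and 9L. The groups were adjacent, with 5N just above 9L, and 5L (3 reads) lay far below the other isotype libraries. The means were 84.0 ± 21.8 and 40.9 ± 22.7 (SD, n = 4 each), a ratio of 2.05 and a log2 difference of 1.32 with a standard error of 0.55. Without 5L the ratio was 1.61 and the log2 difference 0.65. Apol9a no longer met the call rule without 6L, 6R or 10N.

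Apol9b did not show this separation. It was at 51.5, 83.7, 80.0 and 112 normalized reads in 5N, 6L, 6R and 10N. In 5L, 7N, 8N and 9L it was at 46.4, 71.4, 93.9 and 70.6. The ranges of the groups overlapped in part. Library 5N was below 3 of the 4 isotype libraries, 10N was above all of them, and 5L was below all treated libraries. The means were 81.8 ± 24.8 and 70.6 ± 19.4 (SD, n = 4 each), a ratio of 1.16 and a log2 difference of 0.20 with a standard error of 0.28. The log2 difference was 0.02 without 5L, 0.03 without 10N, 0.35 without 8N and 0.40 without 5N. Its copies of the response element core and the surrounding bases were those of Apol9a.

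The division of reads between these near-identical genes varied between libraries. The ratio of Apol9a to Apol9b was 1.27, 1.36, 1.06 and 0.637 in 5N, 6L, 6R and 10N and 0.158, 0.667, 0.551 and 0.807 in 5L, 7N, 8N and 9L. Apol9a exceeded Apol9b in 3 treated libraries and in none of the isotype libraries, while 10N lay within the isotype range. Summed, the pair was at 166 ± 35.4 and 112 ± 40.1 (SD, n = 4 each), a ratio of 1.49 and a log2 difference of 0.63 with a standard error of 0.30. The sum was added as a feature after the data were seen, and it did not reach the ratio of the call rule.

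Apol7c, described in dendritic cells as a protein that acts on phagosome membranes, was near the detection limit. It was at 4.71, 12.8, 13.2 and 9.29 normalized reads in 5N, 6L, 6R and 10N and at 0, 0, 4.08 and 0.650 in 5L, 7N, 8N and 9L. The groups did not overlap, but the highest isotype value was 3 reads and the lowest treated value, in the deepest library, was 40 reads. The means were 10.0 ± 3.95 and 1.18 ± 1.96 (SD, n = 4 each), a ratio of 8.46 that was 46.2 without 8N. The log2 difference was 2.61 with a standard error of 0.73 on the log2(normalized reads + 1) scale, which understates changes of low genes. Absence of reads in 5L and 7N allows up to 7.33 and 7.14 normalized reads, a range that includes the level of 5N. From 112 and 6 reads pooled over the groups the ratio was 7.94, with an exact 95% interval of 3.54 to 22.1 that covers counting error only. The treated mean was only just above the limit of 10, and without 6L or 6R Apol7c fell below it. Of dendritic cell markers, 0 of the 2 fitted (Zbtb46 and Clec9a) were called, and the others were too low to be fitted.

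Apol8 was at 13.7, 9.81, 5.41 and 15.1 normalized reads in 5N, 6L, 6R and 10N and at 9.78, 0, 9.53 and 16.3 in 5L, 7N, 8N and 9L. The groups overlapped fully, and 9L held the highest value of all. The means were 11 ± 4.34 and 8.89 ± 6.69 (SD, n = 4 each), a ratio of 1.24. The log2 difference was 0.77 with a standard error of 0.83, and it was -0.15 without 7N, which had 0 reads, and 1.22 without 9L. Apol10a had 0 reads in each of the 8 libraries, which allows up to 0.353 normalized reads in 5N and 7.33 in 5L. Thus the core in the Apol10a promoter stood beside a gene with no read, and that of Apol10b beside the member with the highest treated mean.

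Levels of different genes can be set side by side only per length, here in normalized reads per kb of the longest coding transcript. With isotype control the order was Apol9b at 44.9 ± 12.3, Apol10b at 27.3 ± 10.9, Apol9a at 26.7 ± 14.8, Apol6 at 8.90 ± 5.34, Apol8 at 3.17 ± 2.39 and Apol7c at 0.574 ± 0.95 (SD, n = 4 each). All neighbours in this order overlapped in range, and Apol9b, Apol10b and Apol9a overlapped with each other. With agonistic CD40 mAb Apol10b led at 73.9 ± 13.1 per kb, followed by Apol9a at 54.9 ± 14.2, Apol9b at 52.0 ± 15.8, Apol6 at 32.7 ± 15.9, Apol7c at 4.86 ± 1.92 and Apol8 at 3.93 ± 1.55. Neighbours in this order overlapped in range except for Apol6 and Apol7c, which were far apart. Apol9b thus led in the isotype group and stood behind Apol10b and Apol9a in the treated group, an order that depends on how reads were split between Apol9a and Apol9b.

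As shares of the summed level per kb, Apol9b made up 33.4% to 56.2% of the family in isotype libraries and 20.3% to 28.0% in treated libraries, although its mean level was not lower with treatment. Apol9a and Apol9b together, a sum that hardly depends on the split because their transcripts are of similar length, made up 61.1% to 68.7% in isotype libraries and 46.3% to 52.5% in treated libraries. Apol10b made up 24.6% ± 2.47 and 33.5% ± 3.17 (SD, n = 4 each), and Apol6 made up 7.14% ± 3.57 and 14.6% ± 5.62. The share of Apol9a was 21.9% ± 8.84 and 24.9% ± 5.12. Apol7c and Apol8 together stayed small, with Apol7c at 0.393% and 2.14% and Apol8 at 3.31% and 1.86% on average. Without 8N, which held 3 of the 6 isotype reads of Apol7c, its isotype share was 0.078%.

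**Figure D3:**
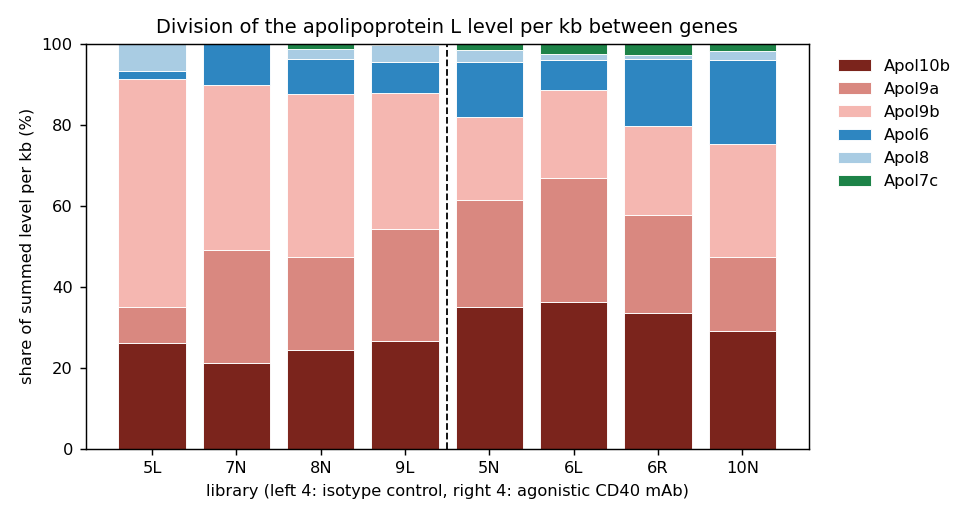
Share (%) of each Apol gene in the summed normalized reads per kb of the listed genes, for the 4 isotype libraries on the left and the 4 libraries treated with agonistic CD40 mAb on the right. Apol9b takes 33.4% to 56.2% of the isotype bars and 20.3% to 28.0% of the treated bars.

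Within the isotype group, library 5L stood apart. It had the lowest level of Apol6, Apol9a, Apol9b and Apol10b, and its summed Apol level was 97.8 against 200 to 274 in the other isotype libraries. On the log2 scale it lay below the group mean by 2.25 for Apol6, 2.00 for Apol9a and 0.88 for Apol10b. 5L was also the shallowest library, had the highest summed melanoma markers (89692, against at most 58341 in the other libraries) and had the lowest summed endothelial markers (34778). Their part in its low Apol levels was not tested. Without 5L, the same call rule was met upward by 4 listed genes, beside 161 of all genes fitted called higher and 123 lower. As above, nothing is read from that count.

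Ratios were also taken with the deep libraries weighted most, an alternative added after the data were seen. In the deepest library of each group, 5N and 9L, the ratio of treated to isotype was 2.14 for Apol6, 7.25 for Apol7c, 0.841 for Apol8, 1.15 for Apol9a, 0.729 for Apol9b and 1.58 for Apol10b. When reads were pooled over the libraries of a group, which weights deep libraries most, the ratio was 2.66 for Apol6 (exact 95% interval 2.22 to 3.19), 1.98 for Apol10b (1.798 to 2.19) and 1.47 for Apol9a (1.30 to 1.67). These were smaller than the ratios of group means. 5N, the deepest treated library, had the lowest Apol10b, Apol9a, Apol9b and Apol7c levels of its group. The pooled ratio was 0.944 for Apol9b (0.843 to 1.06) and 0.875 for Apol8 (0.673 to 1.15). The intervals cover counting error and not the spread between tumors.

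Other genes of the family, not in the set, were sparse apart from Apold1. Apold1, an endothelial immediate early gene with an apolipoprotein L domain on chromosome 6, was at 2268 ± 702 with agonistic CD40 mAb and 2449 ± 1393 with isotype (SD, n = 4 each). Its log2 difference was -0.01 with a standard error of 0.34 (limma adjusted p = 1.00). Apol11b was at 2.24, 0.754, 2.41 and 5.23 normalized reads in the treated libraries and at 0, 42.8, 0 and 0.217 in 5L, 7N, 8N and 9L, so that its isotype mean was set by 18 reads in 7N (limma adjusted p = 1.00). Apol7e was at 0, 2.64, 6.62 and 9.87 in 5N, 6L, 6R and 10N and at 0, 0, 0 and 2.60 in 5L, 7N, 8N and 9L. It was below the limit on low values, and 74.0% of its 50-base windows also occurred in Apol7b. Apol7a had 22 and 12 reads, Apol7d 1 and 5, and Apol7b and Apol11a had 0 with agonistic CD40 mAb and 2 with isotype each. Of the 7 other family genes in the data 2 were fitted and 0 were called by limma or by edgeR on recovered reads, with 0 at an unadjusted limma p below 0.05.

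Genes around the cluster were compared in the same way. Of 10 flanking protein-coding genes 8 were fitted, 0 were called by limma or edgeR and 0 had an unadjusted limma p below 0.05, with a median log2 difference of -0.01. Myh9, the non-muscle myosin heavy chain gene next to Apol8, was at 13615 ± 2179 with agonistic CD40 mAb, and its log2 difference was -0.02. Rbfox2, which lies between Apol6 and the other listed genes and was added after the data were seen, had a log2 difference of -0.01. Of 18 genes named as other apolipoproteins 6 were fitted and 0 were called by limma, with 0 at an unadjusted p below 0.05 and a median log2 difference of -0.07. Apoe, a lipid transport protein and the most highly expressed of them, was at 826 ± 317 and 847 ± 349 (SD, n = 4 each). By edgeR on recovered reads 1 of them, Apon, was called lower.

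**Figure D4:**
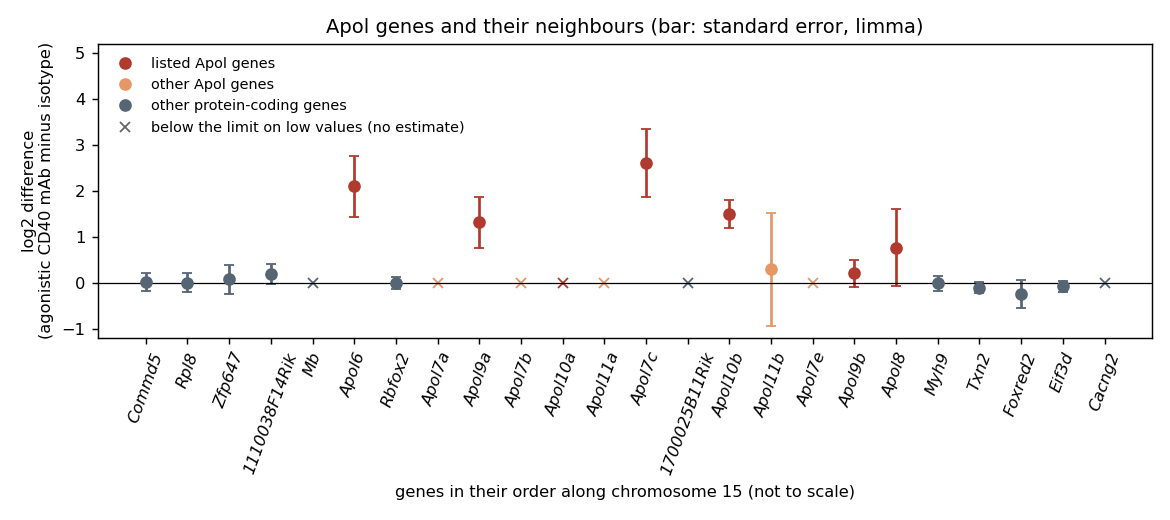
Log2 difference between agonistic CD40 mAb and isotype control (limma estimate, bar: standard error) for Apol genes and nearby protein-coding genes in their order along chromosome 15. The listed genes Apol6, Apol9a, Apol7c and Apol10b lie between 1.32 and 2.61, Apol8 lies at 0.77 and Apol9b at 0.20, and the fitted neighbours lie between -0.24 and 0.20. Crosses mark genes below the limit on low values, and gene models left out of the lists are not drawn.

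Components of the interferon pathway, which acts upstream of many Apol genes, were read by role. The list was written with earlier results of these data known. It had 26 fitted genes, of which 7 rose by the call rule and 0 fell, beside 1.28% of all genes called upward. The median log2 difference was 0.18, and 0 of the 26 had a limma adjusted p below 0.05. No ligand could be fitted. Ifng, which encodes interferon gamma, had 0 reads in all libraries, and Ifnb1 had 8 reads with agonistic CD40 mAb and 0 with isotype. The treated mean of Ifnb1, 0.300 normalized reads, was below the worth of 3 reads in every isotype library (0.650 to 7.33). Its absence with isotype is therefore not resolved.

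None of the 4 receptor genes and none of the 3 kinase genes was called. Ifnar1, a subunit of the type I interferon receptor, was at 1173 ± 90.6 with agonistic CD40 mAb and 1234 ± 93.8 with isotype (SD, n = 4 each). Jak1, the kinase shared by both receptor types, was at 3252 ± 377 and 3213 ± 615. Neither difference exceeded the spread between libraries.

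Of the 12 transcription factors 6 rose, beside 1.28% of all genes called upward. The estimate was positive for all 12, beside 51.3% of all genes fitted, and the median log2 difference was 0.64. Irf1, an interferon-induced factor that binds the response element core, was at 784, 941, 1082 and 1330 in the treated libraries and at 305, 454, 709 and 613 in 5L, 7N, 8N and 9L. Its ratio was 1.99 (limma adjusted p = 0.460), and the ranges did not overlap. Nlrc5, the transactivator of MHC class I genes, was at 633 ± 101 and 217 ± 103 (SD, n = 4 each), a ratio of 2.92 (limma adjusted p = 0.293). Irf8, Irf7 and Batf2 had ratios of 1.70, 1.72 and 3.42 (limma adjusted p of 0.599, 1.00 and 1.00). Among 7 inhibitors of the pathway Socs1 alone was called, at 23.7 ± 15.01 and 8.35 ± 5.58 (SD, n = 4 each), a ratio of 2.84 (limma adjusted p = 1.00). Socs3 was the most highly expressed inhibitor, at 870 ± 157 and 776 ± 155.

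The genes whose levels most resembled those of the Apol genes across the 8 libraries were sought by Pearson's r to the mean standardized log2 level of the 6 fitted members, over 12963 other genes. Among the closest were Trim21 (r = 0.988), Irf1 (0.985), Batf2 (0.978) and Irgm1 (0.978). The mean level of the members holds the treatment difference known when the set was chosen, so genes raised with treatment tend to rank high. Of the 6, Apol7c and Apol8 were fitted through the treated group alone. Nothing about the Apol genes is read from this ranking. Trim21, a cytosolic antibody receptor, was at 122, 155, 167 and 163 in the treated libraries and at 48.9, 69.0, 113 and 113 in 5L, 7N, 8N and 9L, and Irgm1 is an interferon-inducible GTPase. In Trim21, Irf1, Batf2 and Irgm1, as in Apol10b, 5L and 7N were the lowest isotype libraries and 5N was the lowest treated library, whereas the order of the other treated libraries differed. When deviations from the group means were compared instead, which removes the treatment difference, the closest were Agtrap (r = 0.983), Gbp3 (0.976), Trim21 (0.976), Adora2a (0.974) and Dyrk2 (0.972). Trim21 was thus close by both measures. These correlations describe 8 libraries that differ in depth and composition, which all genes of a library share, and many genes were searched.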

How the data were processed

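RNA was sequenced from sorted CD45- CD31+ cells (10 ng RNA per library, a kit that does not mark strand). The submitters' processing notes name CASAVA 1.8, Bowtie2 2.2.1, Partek 6.6, DESeq2 and the build mm10. The authors deposited a table of normalized read signal per gene. Its values were whole multiples of the worth of 1 read in each library, within 0.1 read for 99.94% of values, so that whole reads were recovered. A table column was used for each of the 8 libraries.

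Values were tested as log2(value + 1) with limma 3.58.1 in R 4.3.3, treatment as the only term (the study's methods name a correction for the day of harvest, which the labels do not give for each library, so it could not be a term and its part was not tested), for genes with a larger group mean above 10. edgeR 4.0.16, which called 150 genes higher and 47 lower, and DESeq2 1.42.0 were run on the recovered reads. The study used a 2-way model with macrophage libraries, which were not analysed here. Scripts were tested on simulated data. Members and gene lists were chosen with earlier results of these data known.

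The named genes were the members, the other Apol genes in the table, every called gene and the most highly expressed gene of each list, and the 5 genes most like the members by each of 2 correlations. Results for 1 gene that this rule names are not reported here. Gene models were from GENCODE M21 and promoters from RefSeq (GRCm38.p6). Floors are 3 reads. How reads matching several genes were assigned is not given in the sources used here. Alternatives were 4 other pseudocount or filter settings and other scalings, models and tools, 10 in all, and leaving out each library.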

Additional observations from a re-analysis of the deposited data

Results flagged for a closer look

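In 7 of 24 groups of 4 values of Apol genes (those with any spread), 1 library lay far from the other 3 by Dixon's test, as it did in 0 of 20 groups of summed cell type markers. Chance alone marks about 1 in 20 groups of continuous values, a rate that does not apply to the 4 of these groups in which the other 3 libraries were all at 0. All of these values rested on 1 to 18 reads. Apol7c was at 4.08 normalized reads (3 reads) in isotype library 8N, above the other isotype libraries. Apol7b was at 2.72 (2 reads) in 8N, with 0 in the others. Apol7d, on chromosome 1, was at 9.52 (4 reads) in 7N and, in the treated group, at 0.581 (1 read) in 10N. Apol7e was at 2.60 (12 reads) in 9L and Apol11a at 0.433 (2 reads) in 9L, with 0 in the other isotype libraries. Apol11b was at 42.8 (18 reads) in 7N, where the other isotype libraries were at 0 to 0.217.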

How the results depend on the processing

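Apol6 and Apol10b met the call rule under all 18 alternatives, with log2 differences of 1.35 to 2.40 and 1.21 to 1.67 when each library was left out. Apol7c met it in the 14 settings that could fit it (0.83 with a pseudocount of 10, 4.48 with 0.1). Apol9a met it in 14 of 18, not with limma without trend or without 6L, 6R or 10N (0.65 to 1.58 over libraries left out). Apol8 and Apol9b met it in none, and Apol8 was at -0.15 without 7N. The number of members called was 2 to 4 when a library was left out, with 2 without 6L and 2 without 6R, where fewer were fitted. The number of genes called higher was 331 without the filter on low values and 124 to 234 over libraries left out. The number called lower was 93 without the filter, 13 with a limit of 50, 63 after quantile normalization, 57 without trend, 47 with edgeR, 58 with DESeq2, and 27 to 123 over libraries left out, with 123 without 5L and 52 without 9L. Of the other apolipoproteins, 0 to 1 was called higher (Apod, without 7N) and 0 to 2 lower (Apon and Apool, without 5L), and edgeR called 1 lower (Apon). Interferon pathway genes called ranged from 5 to 8 over libraries left out, with 5 without 5L, 7N, 6L, 6R or 10N. The response element core was in 8.56% of promoters with a base fewer and 0.819% with a base more, and the latter was in 2 members. The causes were not tested. No paired analysis was possible because each library is a different mouse, replicates were numbered in accession order, and the mouse names of the groups share only the leading 5 of 5N and 5L. In the shallow libraries 5L and 7N 3 reads correspond to 7.33 and 7.14 normalized reads, so levels below these are not resolved there.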
